A study of Mus musculus with 28 samples.

Results

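Imprinted genes are expressed from only 1 of the 2 parental copies, and 37 of them at 16 loci were followed through mouse reprogramming. They were chosen by symbol as well-known imprinted genes of the mouse. The rule uses no measured value, but it was set with earlier results of these data known. All 37 were found among the 54109 gene identifiers of the reprogramming libraries and the 54838 of the induced pluripotent stem cell (iPSC) libraries. By textbook knowledge, 21 of them are expressed from the paternal copy, 11 from the maternal copy, and 5 (Copg2, Ube3a, Gnas, Blcap, Grb10) from a copy that depends on the tissue. A level high enough to be tested was found for 30 of the 37 in the reprogramming libraries and for 34 in the iPSC libraries.

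RNA was sequenced from mouse embryonic fibroblasts of E13.5 to E15.5 embryos during doxycycline-driven reprogramming. The 12 libraries formed 4 groups of 3: doxycycline (1 µg/ml) with 3C and UNC0638 (3C+UNC), doxycycline with 3C, doxycycline with UNC0638 (UNC), and doxycycline only (DOX). 3C stands for 3 compounds: 250 nM of TGF-b RI Kinase Inhibitor II, which blocks a TGF-beta receptor, ascorbic acid at 50 µg/ml, and the GSK3 inhibitor CHIR99021 at 3 µM. UNC0638 (1 µM) blocks the enzymes G9a and GLP, products of Ehmt2 and Ehmt1 that place dimethyl marks on lysine 9 of histone H3. A further 6 libraries were from iPSC, 3 derived from cells given UNC0638 during the first 48 hours of reprogramming (UNC iPSC) and 3 derived from cells given DMSO, its solvent (DMSO iPSC). All groups came from cells heterozygous for Rosa26-rtTA and for Oct4-GFP, with the factors supplied by a DOX-inducible OKSM allele (heterozygous) or an inducible OKS allele (homozygous). The labels do not tell which libraries had which factor allele, when RNA of the 12 reprogramming libraries was collected, or whether libraries of a group stem from different embryos, cultures or clones, so the p-values measure only the spread between these libraries. The reprogramming cells had been plated on irradiated feeder cells, and the labels do not say whether these were removed. The treatment text of the iPSC also speaks of a harvest at 48 hours, which goes against their description as iPSC, but all 15 pluripotency markers had reads in those libraries. The H3K9me2 profiles of the series were not analysed here.

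An imprint is a DNA methylation mark set in the egg or the sperm at an imprinting control region, and it is kept in body cells through many divisions. The marked copy and the unmarked copy then differ in which genes of the locus they transcribe, often through a long noncoding RNA (H19, Airn, Meg3, Kcnq1ot1) that is made from only 1 of them. The zinc finger protein Zfp57, which binds methylated TGCCGC in these regions, and its partner Trim28 protect the marks, while Dnmt1 and Uhrf1 copy methylation when DNA is replicated. G9a has been linked to silencing of neighbouring genes by Airn and Kcnq1ot1 in mouse placenta. In mouse iPSC lines the maternal RNAs of the Dlk1/Meg3 locus are known to be lost in some clones, and ascorbic acid has been reported to counter that loss.

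The letters around the start sites are shown for Rian and Mirg, noncoding RNAs of 1 locus that were both higher with UNC0638 in 3C. They are also shown for Meg3, a noncoding RNA of the same locus that lies before them. Ndn, Kcnq1ot1 and Zdbf2 are the other members with a window among those called in that comparison. Each window runs 250 bases before to 50 after a RefSeq start (build GRCm38.p6), 5′ to 3′ on the strand of the gene, and capitals mark TGCCGC on either strand, a match of letters with no claim of binding.
Rian (chr12:109603695-109603994, plus strand): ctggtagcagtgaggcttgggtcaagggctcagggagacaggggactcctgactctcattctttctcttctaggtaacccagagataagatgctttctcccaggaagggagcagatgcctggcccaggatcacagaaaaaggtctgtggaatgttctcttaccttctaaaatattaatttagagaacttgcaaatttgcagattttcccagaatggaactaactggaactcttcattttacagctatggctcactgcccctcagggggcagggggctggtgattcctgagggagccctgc
Mirg (chr12:109734731-109735030, plus strand): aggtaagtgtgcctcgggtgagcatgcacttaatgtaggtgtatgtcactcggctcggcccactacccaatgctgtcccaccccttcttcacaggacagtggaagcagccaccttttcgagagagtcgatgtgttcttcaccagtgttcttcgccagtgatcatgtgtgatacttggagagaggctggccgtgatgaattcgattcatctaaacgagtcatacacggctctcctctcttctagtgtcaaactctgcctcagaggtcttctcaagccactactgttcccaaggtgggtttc
Meg3 (chr12:109540746-109541045, plus strand): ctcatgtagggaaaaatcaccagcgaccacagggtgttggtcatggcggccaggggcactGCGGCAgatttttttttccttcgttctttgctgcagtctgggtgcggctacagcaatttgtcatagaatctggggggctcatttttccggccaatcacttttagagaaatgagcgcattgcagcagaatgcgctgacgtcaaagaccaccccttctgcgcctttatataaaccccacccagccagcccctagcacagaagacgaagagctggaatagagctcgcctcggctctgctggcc
Ndn (chr7:62348027-62348326, plus strand): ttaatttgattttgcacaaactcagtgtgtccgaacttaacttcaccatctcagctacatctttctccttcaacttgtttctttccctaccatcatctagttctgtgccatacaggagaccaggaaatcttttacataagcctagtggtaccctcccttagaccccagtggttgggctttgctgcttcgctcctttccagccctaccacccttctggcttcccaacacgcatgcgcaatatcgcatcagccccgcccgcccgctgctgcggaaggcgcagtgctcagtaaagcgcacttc
Kcnq1ot1 (chr7:143296498-143296797, minus strand): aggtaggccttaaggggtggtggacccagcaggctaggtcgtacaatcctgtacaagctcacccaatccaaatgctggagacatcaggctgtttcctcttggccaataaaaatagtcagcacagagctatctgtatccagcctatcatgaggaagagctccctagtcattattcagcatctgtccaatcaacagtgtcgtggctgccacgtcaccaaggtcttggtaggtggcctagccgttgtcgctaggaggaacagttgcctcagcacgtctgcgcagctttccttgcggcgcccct
Zdbf2 (chr1:63200108-63200407, plus strand): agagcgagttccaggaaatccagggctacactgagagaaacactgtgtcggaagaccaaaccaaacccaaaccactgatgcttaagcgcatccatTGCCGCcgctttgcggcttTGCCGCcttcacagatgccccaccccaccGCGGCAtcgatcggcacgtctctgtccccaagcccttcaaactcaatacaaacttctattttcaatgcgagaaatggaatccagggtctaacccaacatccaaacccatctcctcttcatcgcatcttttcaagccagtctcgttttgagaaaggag

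Of the 37 members, 29 had a window in the table, and some had several starts, giving 43 windows. TGCCGC was present in 13 of the 43 windows (30.2%), against 3813 of all 32851 windows of that length (11.6%). Some windows repeat or overlap, such as the one shared by Snrpn and Snurf and a pair of Mest; with 1 kept of each such run, the motif was in 11 of 40 windows (27.5%), against 3520 of 30746 (11.4%). Members' 43 windows also held a median of 14 CpG dinucleotides, against 7 over all windows, and the part of CpG content in the motif share was not tested. The Zdbf2 window printed above held 3 matches and the Meg3 window 1, while those of Rian, Mirg, Ndn and Kcnq1ot1 held 0. Zdbf2 and Meg3 each have a second RefSeq start, not printed, whose window held 0 matches. The Rian window was without a single CpG, at 0, whereas the second RefSeq start of Zdbf2 lay in a window with 38.

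Several members also span microRNAs, which these libraries of long RNA did not measure. By position alone, RefSeq places 28 mature microRNAs inside Rtl1, whose span overlaps Meg3 and Rian. It places 19 inside Mirg, 6 inside Rian, 3 inside Meg3, and 2 each inside H19, Igf2, Mest and Usp29. Strand was not considered in this count. The microRNAs inside Rtl1 lie on both strands, so not all of them can come from the Rtl1 RNA. Examples are given for 4 hosts that changed, with the seed (bases 2 to 8, which pair with target RNAs) in capitals.
mmu-miR-675-5p in H19 (chr7:142577112-142577133, minus strand): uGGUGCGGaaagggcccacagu
mmu-miR-675-3p in H19 (chr7:142577078-142577099, minus strand): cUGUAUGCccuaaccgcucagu
mmu-miR-335-5p in Mest (chr6:30741314-30741336, plus strand): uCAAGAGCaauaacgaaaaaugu
mmu-miR-370-3p in Rian (chr12:109618305-109618326, plus strand): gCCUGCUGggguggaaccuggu
mmu-miR-453 in Mirg (chr12:109735669-109735692, plus strand): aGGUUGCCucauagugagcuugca
mmu-miR-496a-5p in Mirg (chr12:109739132-109739152, plus strand): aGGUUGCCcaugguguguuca
The 2 Mirg examples share the seed GGUUGCC, while the others differ from each other and from it.

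Reprogramming libraries held 10616764 to 20211641 reads in genes and iPSC libraries 21592023 to 25408585. Values of the reprogramming libraries are normalised counts, that is, reads divided by 1 factor per library, and those of the iPSC are CPM, reads scaled to the total of the library; neither is per length, so levels are compared between groups and never between genes. All 15 fibroblast markers had reads in all groups, while of the pluripotency markers Dppa2, Dppa4 and Dppa5a were at 0 in all 12 reprogramming libraries and every one was found in the iPSC. The kit keeps strand, but whether reads were counted by strand is not given in the sources used here. Reads of overlapping members can therefore not be told apart with certainty: Igf2r and Airn share 28396 bases, Kcnq1ot1 lies within Kcnq1, Mest and Copg2 share 913 bases, Nnat lies within Blcap, and Rtl1 overlaps Meg3 and Rian.

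With 3C, most imprinted members that could be tested differed from the matching libraries lacking it, and the majority were lower. Calls were made in limma on log2 of normalised counts plus 1, with p adjusted over all 16138 genes tested and a threshold of 0.05. In 3C against DOX, 16 of 30 members (53.3%) were lower, against 24.7% of all genes, and 7 (23.3%) were higher, also against 24.7%. In 3C+UNC against UNC, 13 (43.3%) were lower, against 23.5% of all genes, and 5 (16.7%) were higher, against 23.9%. The median log2 fold change of the 30 was -0.53 without UNC0638 and -0.22 with it, beside 0.02 and 0.01 over all genes tested. The share of higher members was thus close to or below the background, and that of lower members above it. All 18 members called in the presence of UNC0638 were also called, in the same direction, in its absence. They were 78.3% of the 23 called there. Over all 16138 genes, 7656 were called in its presence and 7978 in its absence. Their overlap was not counted, so whether that of the members is unusual was not tested. Both comparisons also come from 1 fit, which leaves the replicate number out. With replicate numbers as a block, limma called 17 members lower and 7 higher in 3C against DOX. In 3C+UNC against UNC the block gave 14 lower and 7 higher. Over all 16138 genes it called 8621 and 8307, of which 4320 and 4205 were higher.

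Markers of several cell types were also called in the same comparisons. Over all genes, 24.7% were lower and 24.7% higher in 3C against DOX. In 3C+UNC against UNC 23.5% were lower and 23.9% higher, and the short marker lists were not tested against these shares. For fibroblast markers, the summed level was 66050 to 79146 normalised counts in 3C libraries against 177236 to 193627 in DOX libraries, with 10 of 15 markers lower and 1 (Twist1) higher. The sums were 109275 to 112795 in 3C+UNC libraries against 217938 to 236322 in UNC libraries, with 9 lower and 5 higher. Of 15 pluripotency markers only 6 could be tested, and in both media 4 were lower with 3C (Pou5f1, Fgf4, L1td1, Tdh) and 1 was higher (Tfcp2l1, 3.58 ± 0.25 in 3C+UNC against UNC and 3.88 ± 0.25 in 3C against DOX). Pou5f1 encodes Oct4, which the inducible alleles also supply, and it fell by 0.98 ± 0.05 in 3C+UNC against UNC and by 0.51 ± 0.05 in 3C against DOX. Sums of the pluripotency markers were 2888 to 3415 normalised counts in 3C+UNC libraries, 4056 to 4481 in 3C libraries, 5818 to 6206 in UNC libraries, and 6390.1 to 6622 in DOX libraries. Of 5 tested neural markers, 3 (Map2, Tubb3, Stmn2) were lower with 3C in both media. Of 3 tested endothelial markers, Cdh5 and Tek were lower in both and Esam was higher in 3C+UNC against UNC. Of 3 tested trophoblast and extraembryonic markers, Tfap2c was higher in both and Gata3 in 3C+UNC against UNC, where Cd68, 1 of 8 macrophage markers, was also higher. In whole-culture RNA, fewer cells of a type and less RNA per cell cannot be told apart, and the part of cell composition in the changes of imprinted genes was not tested.

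**Figure D1:**
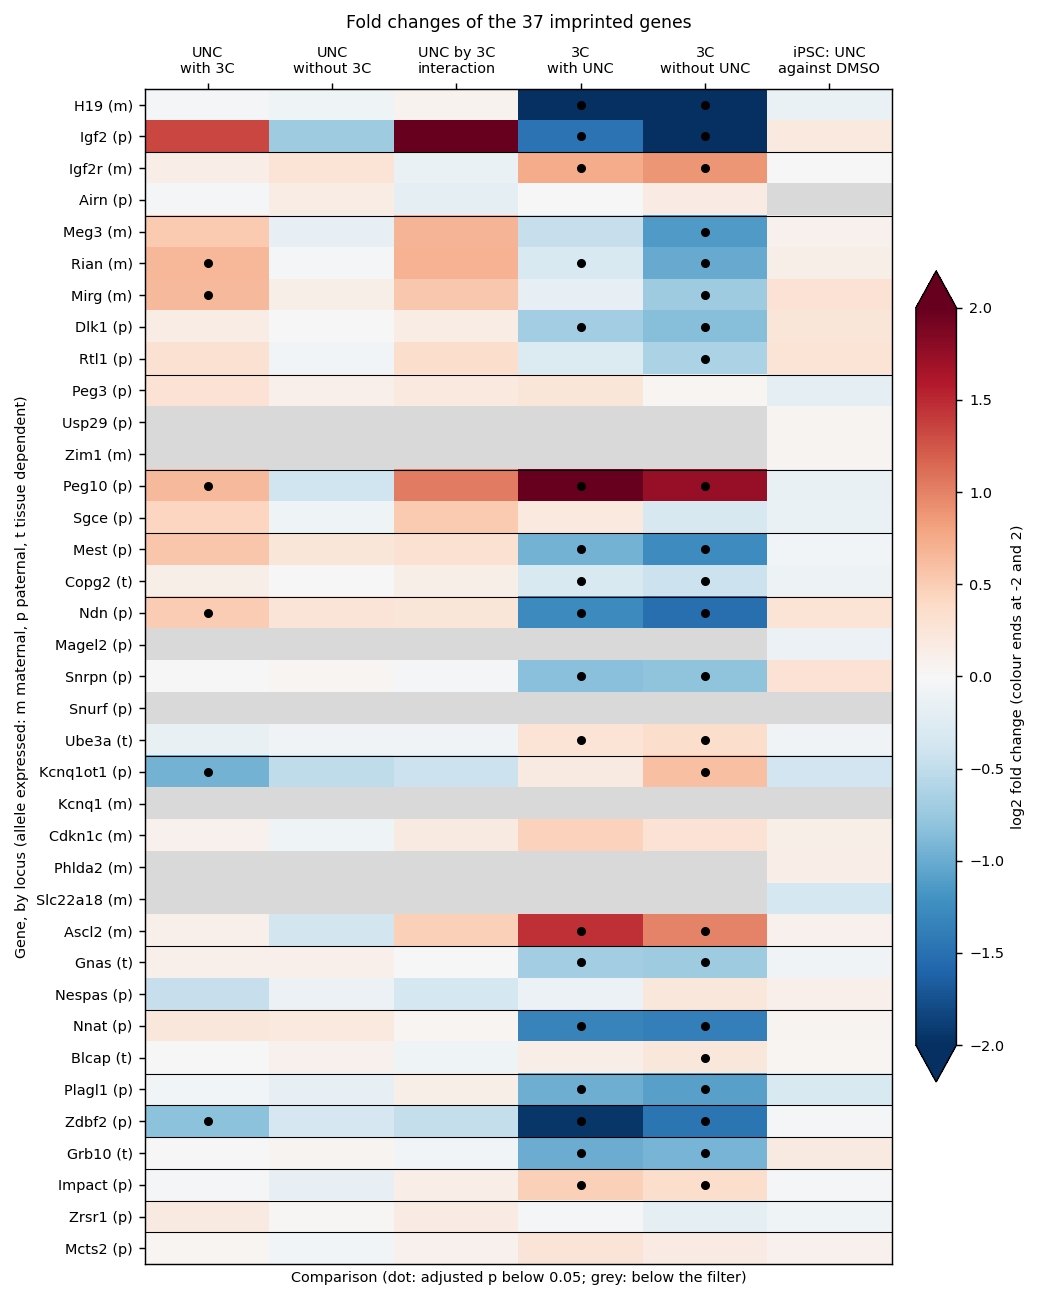
Log2 fold changes of the 37 imprinted genes (rows, grouped by locus) in 6 comparisons (columns), where red is higher and blue lower in the group named first, black dots mark an adjusted p below 0.05 and grey marks genes below the filter. Blue with dots dominates both 3C columns (16 of 30 and 13 of 30 lower), while the column for UNC without 3C and the iPSC column hold 0 dots.

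At the H19/Igf2 locus of chromosome 7, both genes fell with 3C, although they are expressed from opposite parental copies. H19 (142575530 to 142578146), a maternal noncoding RNA abundant in fetal tissue, measured 961, 1042.5 and 766 normalised counts in 3C+UNC libraries, 1139, 1078 and 649 in 3C libraries, 17526, 12018 and 10901 in UNC libraries, and 19357, 15073 and 9440.1 in DOX libraries. The libraries with and without 3C were far apart, and within either medium the UNC0638 groups overlapped. Mean H19 was lower by 14.6-fold in 3C+UNC than in UNC and by 15.3-fold in 3C than in DOX (log2 fold changes -3.85 ± 0.23 and -3.92 ± 0.23, SE; adjusted p = 2.16e-10 and 1.70e-10, limma). UNC0638 gave -0.02 ± 0.23 with 3C and -0.09 ± 0.23 without it, neither of them called.

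Igf2 (142650768 to 142666816), the paternal fetal growth factor, was close to the limit of detection. Its levels were 2.33, 3.64 and 5.52 normalised counts in 3C+UNC libraries, 0, 1.48 and 1.54 in 3C libraries, 29.9, 8.77 and 6.25 in UNC libraries, and 29.4, 19.2 and 14.6 in DOX libraries. Each 3C library lay below each library without 3C. These levels rest on 4 reads in all 3C libraries against 50 in DOX libraries, a ratio of 0.0553 per read sequenced (95% interval 0.0145 to 0.151, counting error only), and on 10 reads in 3C+UNC against 50 in UNC (0.256, 0.116 to 0.510). The call against DOX had an adjusted p of 4.02e-05 (limma, log2 fold change -3.52 ± 0.56), and with a pseudocount of 10 in place of 1 the log2 fold change was -1.47, still called. The call against UNC (-1.48 ± 0.56, adjusted p = 0.0361) was lost without replicate 1 of the UNC libraries (-0.85, adjusted p = 0.24) and without replicate 1 or 2 of the 3C+UNC libraries (adjusted p = 0.116 and 0.0718, limma), with a pseudocount of 0.5 (0.0535) and with no filter (0.0757), and its value was -0.74 with a pseudocount of 10.

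The Kcnq1 locus, next to it on chromosome 7, moved in another way: its paternal noncoding RNA went down with UNC0638 in 3C, and the maternal gene Ascl2 went up with 3C. Kcnq1ot1 (143213111 to 143296547), which silences neighbouring genes on the copy that makes it, measured 876, 798 and 968 normalised counts in 3C+UNC libraries, 1304, 1691 and 2164 in 3C libraries, 1066, 686 and 641 in UNC libraries, and 1272, 739.8 and 1444 in DOX libraries. All 3C+UNC libraries lay below all 3C libraries, while the UNC and DOX libraries overlapped. Kcnq1ot1 fell with UNC0638 in 3C (log2 fold change -0.94 ± 0.21, adjusted p = 0.00811, limma), and the value without 3C was -0.51 ± 0.21 (adjusted p = 0.443). It was higher in 3C than in DOX (0.60 ± 0.21, adjusted p = 0.0264), a call that did not last without replicate 2 of DOX (0.31, adjusted p = 0.193), without replicate 2 or 3 of 3C (0.0533 and 0.143), or in DESeq2 on the recovered reads (0.109). In 3C+UNC against UNC the value was 0.18 ± 0.21 (adjusted p = 0.534).

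Among the genes that Kcnq1ot1 is known to silence, Ascl2 (142966822 to 142969264), a transcription factor of the trophoblast, measured 17.5, 26.7 and 26.5 normalised counts in 3C+UNC libraries, 29.7, 18.5 and 17.8 in 3C libraries, 6.83, 7.67 and 8.93 in UNC libraries, and 11.0, 9.61 and 10.2 in DOX libraries. The libraries with 3C were above those without it in both media. It rose with 3C in the presence of UNC0638 (1.46 ± 0.30, adjusted p = 0.0006, limma) and in its absence (0.99 ± 0.30, adjusted p = 0.0112); the second call was not made without replicate 1 of 3C (adjusted p = 0.0738) or in DESeq2 (0.052). Counts were low, with 73 reads in 3C libraries and 24 in DOX libraries. Cdkn1c (143458339 to 143461059), a maternal inhibitor of cyclin-dependent kinases, measured 142, 52.1 and 92.8 normalised counts in 3C+UNC libraries, 138, 39.2 and 106 in 3C libraries, 82.0, 40.6 and 79.4 in UNC libraries, and 92.0, 67.3 and 51.2 in DOX libraries. Its libraries overlapped in all comparisons and it was not called in any of them. The other genes of the locus were at or near 0 in reprogramming cells: Phlda2, a brake on placental growth, had 9 reads and the transporter gene Slc22a18 had 57 reads over 12 libraries. Kcnq1 itself, a potassium channel, had 0 reads in the 12 libraries together, which allows up to 0.0169 CPM. In iPSC, by contrast, Phlda2 measured 49.7 to 50.7 CPM in UNC iPSC and 42.0 to 48.2 CPM in DMSO iPSC, with no test made across the 2 separately made tables.

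Igf2r and Airn, on chromosome 17, form a sense and antisense pair. Igf2r (12682406 to 12769706) encodes the receptor that clears Igf2 from the cell surface and, in most mouse tissues, is made from the maternal copy. Its levels were 17813, 16695 and 18547 normalised counts in 3C+UNC libraries, 17406, 13992 and 16913 in 3C libraries, 10573, 10096 and 11063 in UNC libraries, and 9232, 7920.2 and 9035 in DOX libraries. The 3C groups were above their counterparts in every library, and the UNC libraries were above the DOX libraries. Igf2r rose with 3C in the presence of UNC0638 (log2 fold change 0.74 ± 0.08, adjusted p = 3.17e-07) and in its absence (0.88 ± 0.08, adjusted p = 3.39e-08, limma). The UNC0638 values of 0.14 ± 0.08 with 3C and 0.28 ± 0.08 without it were not called (adjusted p = 0.266 and 0.128). Airn (12741311 to 12859884), the paternal RNA that starts inside Igf2r and silences it, ranged over 22.1 to 40.1 normalised counts in the 12 libraries, with overlapping groups in all comparisons and log2 fold changes between -0.03 and 0.17 in the 4 comparisons of groups.

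At the Dlk1/Meg3 locus of chromosome 12, all 5 members were lower in 3C than in DOX, and 2 of the 3 maternal noncoding RNAs were higher when UNC0638 was added to 3C. Meg3 (109540996 to 109571729) is the first of these maternal RNAs by position. It measured 278, 138 and 200.0 normalised counts in 3C+UNC libraries and 110.3, 133 and 177 in 3C libraries. Without 3C it measured 381, 240.0 and 219.6 in UNC libraries and 331, 275 and 306 in DOX libraries. The 3C and DOX libraries did not overlap, while the other pairs did. Meg3 fell in 3C against DOX (log2 fold change -1.13 ± 0.22, adjusted p = 0.000374, limma). In 3C+UNC against 3C it was 0.52 ± 0.22 (adjusted p = 0.149), and this reached 0.77 (adjusted p = 0.0266) without replicate 2 of 3C+UNC. In 3C+UNC against UNC it was -0.46 ± 0.22 (adjusted p = 0.102), with an adjusted p of 0.0382 when replicate numbers were kept as a block and 0.0151 (log2 fold change -0.71) without replicate 1 of 3C+UNC.

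Rian (109603945 to 109661716), a host of small nucleolar RNAs, measured 1845, 1406 and 1668 normalised counts in 3C+UNC libraries, 1075, 905 and 1133 in 3C libraries, 2197, 1864 and 2022 in UNC libraries, and 2189, 1914 and 2132 in DOX libraries. The 3C libraries were the lowest, the 3C+UNC libraries came next, and the groups without 3C overlapped above both. Rian rose with UNC0638 in 3C (log2 fold change 0.66 ± 0.10, adjusted p = 0.000226, limma), whereas the value without 3C was -0.04 ± 0.10 (adjusted p = 0.952). The difference between these effects was 0.69 ± 0.13, with an adjusted p of 0.0554. Rian fell with 3C by 1.01 ± 0.10 on the log2 scale in the absence of UNC0638 (adjusted p = 9.84e-08), and by 0.31 ± 0.10 in its presence (adjusted p = 0.0118). This last call was lost without replicate 1 of UNC (log2 fold change -0.25, adjusted p = 0.0615) or replicate 2 of 3C+UNC (-0.21, adjusted p = 0.0843).

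Mirg (109734981 to 109749458), the microRNA host at the far end, measured 284, 164 and 204 normalised counts in 3C+UNC libraries, 127, 105 and 181 in 3C libraries, 286, 213 and 221 in UNC libraries, and 238, 205 and 218 in DOX libraries. The 3C+UNC and 3C libraries overlapped, since replicate 3 of 3C was above replicate 2 of 3C+UNC. The rise with UNC0638 in 3C was 0.66 ± 0.19 (adjusted p = 0.0318, limma). It was lost without replicate 1 or 2 of 3C (adjusted p = 0.0825 and 0.165), without replicate 1 or 3 of 3C+UNC (0.159 and 0.075), and in a fit of only these 2 groups (0.0595). In 3C against DOX Mirg fell (-0.71 ± 0.19, adjusted p = 0.00468), and in 3C+UNC against UNC it was -0.17 ± 0.19 (adjusted p = 0.504).

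The paternal genes of that locus followed the maternal ones in 3C. Dlk1 (109452485 to 109463336), a membrane protein of fetal and precursor cells, measured 92.0, 110.3 and 72.9 normalised counts in 3C+UNC libraries, 104, 93.3 and 54.8 in 3C libraries, 207, 163 and 95.5 in UNC libraries, and 163, 157 and 123 in DOX libraries. Rtl1 (109564900 to 109604418), a retrotransposon-derived gene needed in the placenta, measured 112, 78.8 and 93.9 normalised counts in 3C+UNC libraries, 91.3, 60.0 and 80.3 in 3C libraries, 129, 103 and 111 in UNC libraries, and 139, 94.9 and 126 in DOX libraries. For both genes the 3C and DOX libraries were apart and the remaining pairs overlapped. Dlk1 fell in 3C against DOX (-0.85 ± 0.25, adjusted p = 0.0102, limma; 0.074 without replicate 3 of 3C) and in 3C+UNC against UNC (-0.70 ± 0.25, adjusted p = 0.0304). Leaving out replicate 1 or 2 of UNC or replicate 1 or 3 of 3C+UNC took the second call away (adjusted p = 0.0589 to 0.174), with a value of -0.46 without replicate 1 of UNC. Rtl1 fell in 3C against DOX (-0.63 ± 0.18, adjusted p = 0.00769; 0.0521 without replicate 2 of 3C). Neither was called with UNC0638, where Dlk1 gave 0.15 ± 0.25 and Rtl1 0.30 ± 0.18 in 3C.

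**Figure D2:**
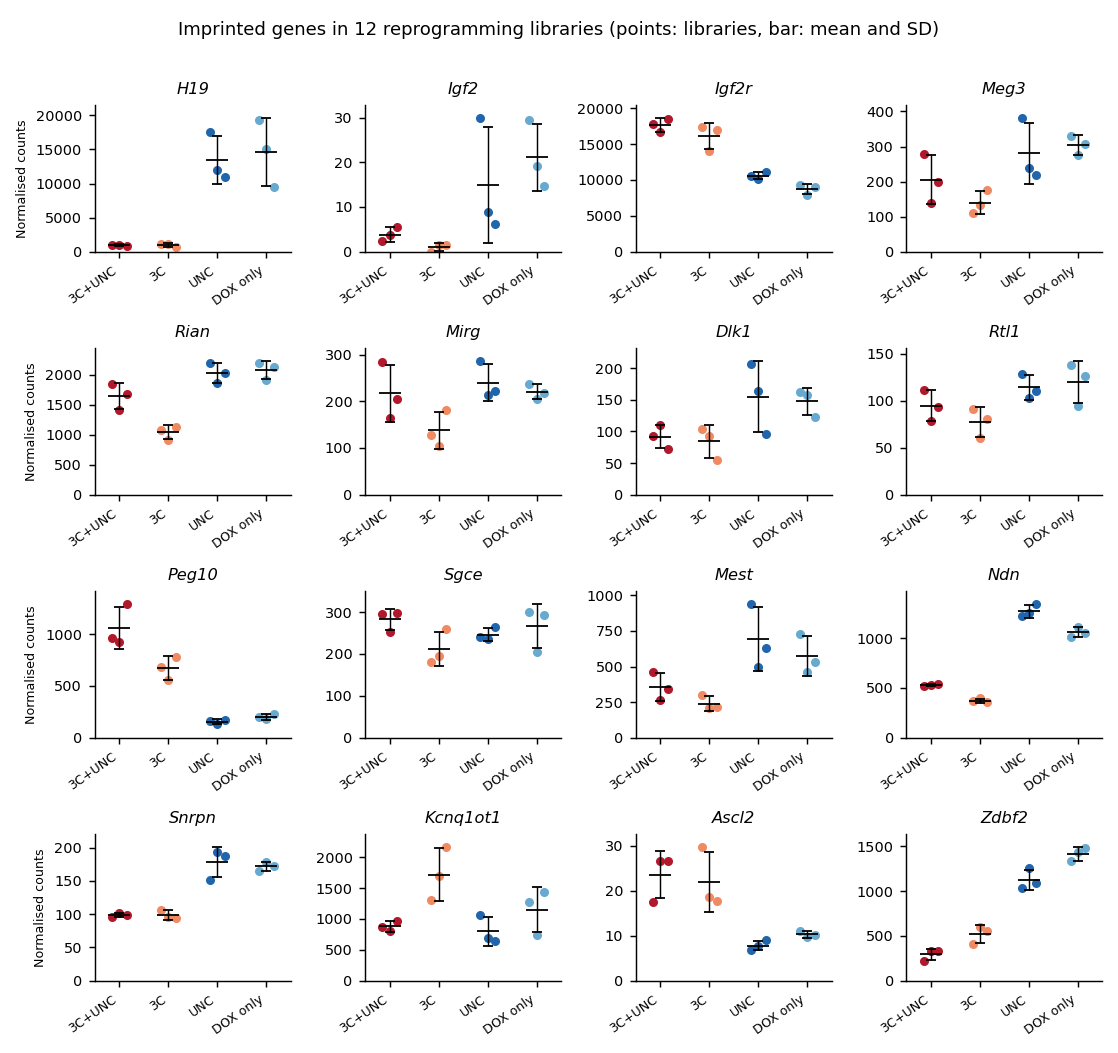
Normalised counts of 16 imprinted genes in each of the 12 reprogramming libraries (points, replicates 1 to 3 from left to right within a group) with the group mean and SD (bars), for 3C+UNC, 3C, UNC and DOX only. H19 is at most 1139 in the libraries with 3C and at least 9440.1 in those without it, Peg10 shows the opposite order, and Rian in 3C (905 to 1133) is below all other groups.

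Peg10 and Sgce, paternal neighbours on chromosome 6 that start head to head, differed from each other. Peg10 (4747306 to 4760517), a retrotransposon-derived gene needed for the placenta, measured 959.9, 927 and 1289 normalised counts in 3C+UNC libraries, 679.8, 558 and 782 in 3C libraries, 158, 127 and 173 in UNC libraries, and 195, 175 and 231 in DOX libraries. Each of the 4 groups was apart from the next, in the order 3C+UNC, 3C, DOX and UNC. Peg10 was 6.93-fold higher in 3C+UNC than in UNC (log2 fold change 2.78 ± 0.15, adjusted p = 4.22e-11) and 3.36-fold higher in 3C than in DOX (1.74 ± 0.15, adjusted p = 1.87e-08, limma). UNC0638 raised it in 3C (0.65 ± 0.15, adjusted p = 0.00705), a call that slipped to an adjusted p of 0.0517 without replicate 3 of 3C+UNC. Without 3C the value had the other sign (-0.39 ± 0.15, adjusted p = 0.342), and the difference of the 2 effects was 1.04 ± 0.21 with an adjusted p of 0.0558.

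Sgce (4674350 to 4747204), which encodes epsilon-sarcoglycan, measured 253 to 298 normalised counts in 3C+UNC libraries, 182 to 259 in 3C libraries, 236 to 263 in UNC libraries, and 205 to 300.4 in DOX libraries. These groups overlapped and no comparison was called, with 0.43 ± 0.14 for UNC0638 in 3C (adjusted p = 0.0609, limma) and -0.33 ± 0.14 for 3C against DOX (adjusted p = 0.068). The replicate block made both of them calls (adjusted p = 0.00855 and 0.0156). The UNC0638 value was also called without replicate 2 of DOX (adjusted p = 0.0272), replicate 3 of 3C (0.0172, log2 fold change 0.58) or replicate 2 of 3C+UNC (0.0492). The 3C value was called without replicate 2 of DOX (-0.50, adjusted p = 0.00526) or replicate 3 of 3C (-0.48, adjusted p = 0.0112).

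Mest and Copg2, on the same chromosome, were lower with 3C in both media. Mest (30733506 to 30748466), a paternal hydrolase-like protein of mesoderm, measured 459, 264 and 343 normalised counts in 3C+UNC libraries, 298, 208 and 213 in 3C libraries, 939, 499.8 and 634 in UNC libraries, and 732, 459 and 534 in DOX libraries. All libraries with 3C lay below those without it in each medium. Its log2 fold changes were -0.94 ± 0.22 in 3C+UNC against UNC (adjusted p = 0.00155) and -1.25 ± 0.22 in 3C against DOX (adjusted p = 0.000113, limma). With UNC0638 in 3C the value was 0.55 ± 0.22 (adjusted p = 0.116), which was called with the replicate block (adjusted p = 3.29e-05) and without replicate 2 of 3C+UNC (0.74, adjusted p = 0.0428). Copg2 (30747554 to 30896815), a subunit of the coatomer of Golgi vesicles, measured 862, 956 and 982 normalised counts in 3C+UNC libraries, 880.2, 842 and 855 in 3C libraries, 1089, 1210.0 and 1177 in UNC libraries, and 1161, 1171 and 1125 in DOX libraries. Its falls were smaller than those of Mest, at -0.31 ± 0.06 (adjusted p = 0.000396) and -0.42 ± 0.06 (adjusted p = 1.67e-05), and the groups with and without 3C did not overlap.

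The Snrpn locus of chromosome 7, whose human counterpart is lost in Prader-Willi and Angelman syndromes, held members that moved apart. Ndn (62348277 to 62349928), a paternal MAGE-family protein that restrains growth, measured 516, 527 and 539 normalised counts in 3C+UNC libraries, 367, 395 and 356 in 3C libraries, 1220.4, 1255 and 1344 in UNC libraries, and 1018, 1118 and 1059 in DOX libraries. Its 4 groups were all apart from each other. Ndn was 2.41-fold lower in 3C+UNC than in UNC (log2 fold change -1.27 ± 0.06, adjusted p = 2.96e-11) and 2.86-fold lower in 3C than in DOX (-1.51 ± 0.06, adjusted p = 2.50e-12, limma). UNC0638 raised it in 3C (0.50 ± 0.06, adjusted p = 6.97e-05), and without 3C the value was 0.26 ± 0.06 (adjusted p = 0.0857).

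Snrpn (59982495 to 60450177), a paternal gene for the splicing protein SmN, measured 95.5, 102 and 98.3 normalised counts in 3C+UNC libraries, 107, 95.5 and 94.2 in 3C libraries, 152, 194 and 188 in UNC libraries, and 166, 179 and 173 in DOX libraries. Ube3a (59228750 to 59310837), a ubiquitin ligase that is imprinted in neurons and made from both copies elsewhere, measured 2895, 3252 and 3079.5 normalised counts in 3C+UNC libraries, 3724, 3343 and 3129 in 3C libraries, 2362, 2606 and 2644 in UNC libraries, and 2589.6, 2719 and 2683 in DOX libraries. The groups with and without 3C were apart for both genes, Snrpn being lower and Ube3a higher with 3C. Snrpn fell by 0.84 ± 0.12 on the log2 scale with UNC0638 present (adjusted p = 1.22e-05) and by 0.80 ± 0.12 without it (adjusted p = 2.03e-05, limma). Ube3a rose by 0.28 ± 0.07 (adjusted p = 0.0018) and 0.35 ± 0.07 (adjusted p = 0.000233). UNC0638 itself gave no call for either, with -0.00212 and -0.14 in 3C. Magel2, another paternal MAGE gene, had 3 reads over the 12 libraries. Snurf, an upstream reading frame of the Snrpn transcript whose RefSeq span lies inside Snrpn, had 0 reads in all 18 libraries (at most 0.0169 CPM in the reprogramming table and 0.0208 CPM in the iPSC table), so its value does not show whether that transcript is made.

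Zdbf2 and Plagl1, paternal genes on chromosomes 1 and 10, were both lower with 3C, and Zdbf2 was lower again with UNC0638. Zdbf2 (63200358 to 63314576), a zinc finger gene that acts on early growth in mice, measured 224, 335 and 326 normalised counts in 3C+UNC libraries, 406, 594 and 555 in 3C libraries, 1036, 1256 and 1088 in UNC libraries, and 1334, 1435 and 1480.4 in DOX libraries. Its groups did not overlap and ran in the order DOX, UNC, 3C and 3C+UNC from high to low. The log2 fold change for UNC0638 was -0.82 ± 0.14 with 3C (adjusted p = 0.000977) and -0.33 ± 0.14 without it (adjusted p = 0.443, limma). The 3C values were -1.95 ± 0.14 with UNC0638 (adjusted p = 2.77e-09) and -1.47 ± 0.14 in its absence (adjusted p = 1.04e-07). Plagl1 (13090832 to 13131694), a transcription factor that stops the cell cycle, measured 917, 676 and 800.0 normalised counts in 3C+UNC libraries, 912, 799 and 757 in 3C libraries, 1646, 1481 and 1539.6 in UNC libraries, and 1668, 1809.8 and 1751 in DOX libraries. It fell with 3C in both media (-0.97 ± 0.09, adjusted p = 7.87e-08, and -1.09 ± 0.09, adjusted p = 1.80e-08), while neither UNC0638 value was called.

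Chromosome 2 holds the Gnas locus, Nnat with Blcap, and Mcts2. Gnas (174284320 to 174346744), the alpha subunit of the stimulatory G protein, measured 1535, 1667 and 1728 normalised counts in 3C+UNC libraries, 1473, 1553 and 1543 in 3C libraries, 2754, 2699.5 and 2557 in UNC libraries, and 2473, 2593 and 2432 in DOX libraries. Nnat (157560078 to 157562525), a small paternal membrane protein, measured 80.4, 82.4 and 80.7 normalised counts in 3C+UNC libraries, 74.7, 62.9 and 69.5 in 3C libraries, 179, 208 and 232 in UNC libraries, and 179, 163 and 195 in DOX libraries. Both were lower in each library with 3C than in each without it. Gnas fell by 0.70 ± 0.06 (adjusted p = 9.04e-09) and 0.71 ± 0.06 (adjusted p = 6.76e-09) on the log2 scale, with UNC0638 and without it, and Nnat by 1.33 ± 0.13 (adjusted p = 1.06e-07) and 1.36 ± 0.13 (adjusted p = 7.34e-08, limma). Blcap (157556362 to 157566361), the membrane protein gene that contains Nnat, measured 521, 514 and 505 normalised counts in 3C+UNC libraries, 492, 491 and 561 in 3C libraries, 448, 483 and 476 in UNC libraries, and 452, 437 and 432 in DOX libraries. It went the other way from Nnat in 3C against DOX (0.22 ± 0.07, adjusted p = 0.0138; 0.0942 without replicate 3 of 3C), while 0.13 ± 0.07 with UNC0638 was not called. Nespas, a paternal antisense RNA of the Gnas locus, stayed between 38.8 and 76.4 normalised counts, and its 3C+UNC libraries (38.8 to 53.6) lay below its 3C libraries (54.1 to 76.4) without a call (-0.46 ± 0.19, adjusted p = 0.137).

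Grb10 and Impact are each the only member at their locus. Grb10 (chromosome 11, 11930499 to 12037428), an adaptor that damps insulin and growth factor signals, measured 26692, 27527 and 27185 normalised counts in 3C+UNC libraries, 27388, 26638 and 27040.4 in 3C libraries, 54922, 52505 and 54051 in UNC libraries, and 53542, 51041 and 50693 in DOX libraries. Libraries of a group were within a narrow range, and those with 3C were far below those without it. Grb10 was 1.98-fold lower in 3C+UNC than in UNC (-0.99 ± 0.05, adjusted p = 3.51e-11) and 1.92-fold lower in 3C than in DOX (-0.94 ± 0.05, adjusted p = 6.62e-11, limma), and the UNC0638 values were 0.01 ± 0.05 with 3C and 0.06 ± 0.05 without it. Impact (chromosome 18, 12954690 to 12992950), a paternal regulator of the kinase GCN2, measured 2181, 2298 and 2186 normalised counts in 3C+UNC libraries, 2201, 2348 and 2243 in 3C libraries, 1384, 1699 and 1709 in UNC libraries, and 1714, 1837 and 1769 in DOX libraries. It rose with 3C in both media (0.48 ± 0.07, adjusted p = 1.41e-05, and 0.35 ± 0.07, adjusted p = 0.000347, limma). The groups with 3C did not overlap those without it.

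Peg3 (chromosome 7, 6703892 to 6730462), a paternal zinc finger protein, measured 832, 596 and 676 normalised counts in 3C+UNC libraries, 674, 491 and 549 in 3C libraries, 673, 566 and 538 in UNC libraries, and 666, 485 and 519.8 in DOX libraries. Its groups overlapped, and the log2 fold changes were 0.29 ± 0.14 for UNC0638 in 3C (adjusted p = 0.179) and 0.24 ± 0.14 for 3C with UNC0638 (adjusted p = 0.164, limma). With replicate numbers as a block both were called (adjusted p = 0.00286 and 0.00436). Its neighbours Usp29 and Zim1 had 53 and 63 reads over the 12 libraries and were not tested. The retrogenes Zrsr1 (139 to 197 normalised counts) and Mcts2 (175 to 274) were not called in any comparison; the 3C value of Mcts2 with UNC0638, 0.26 ± 0.12 (adjusted p = 0.0766), was called with the block (adjusted p = 0.041) and without replicate 3 of UNC (0.33, adjusted p = 0.0486).

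UNC0638 had few calls among the members when 3C was present, and none without it. In 3C+UNC against 3C, Rian, Mirg, Peg10 and Ndn were higher, 4 of 30 (13.3%) beside 7.71% of all genes, and Kcnq1ot1 and Zdbf2 were lower, 2 of 30 (6.67%) beside 3.94%. Counts this small are near the background and say nothing of the list as a whole; the median over the 30 was 0.11, beside -0.00246 over all genes tested. Keeping replicate numbers as a block added Mest, Peg3 and Sgce, for 9 members. Calls over all 16138 genes rose with it too, from 1880 to 2871. Without replicate 3 of 3C+UNC 4 members were called, beside 1137 of all 16055 genes tested. Without its replicate 2 there were 9, beside 1917 of 16066. Fibroblast markers were higher in that comparison in 12 of 15 genes, Lox (1.09 ± 0.12) and Col1a1 (0.93 ± 0.08) among them, and the 3C+UNC sums of 109275 to 112795 lay above the 3C sums of 66050 to 79146 normalised counts. Among pluripotency markers, Pou5f1 (-0.53 ± 0.05) and L1td1 (-0.35 ± 0.09) were lower. Their part in the results for imprinted genes was not tested.

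In UNC against DOX, 0 of 30 members were called in limma, beside 0.508% of all genes called higher and 0.0991% called lower. At an unadjusted p below 0.05 in limma there were 6 of 30, beside 1505 of all 16138 genes tested. Igf2r and Ndn had higher levels, and Peg10, Zdbf2, Kcnq1ot1 and Impact lower ones. DESeq2 on the recovered reads called 2 of them (Igf2r at 0.28 and Ndn at 0.26 on the log2 scale), and edgeR called 0. Over all genes DESeq2 called 168 there, where limma called 98. The interaction tests whether UNC0638 acted differently with and without 3C. It called 0 of 30 in limma, beside 0.0434% of all genes higher and 0.0186% lower. An unadjusted p below 0.05 was found for 7 of 30, beside 1797 of all 16138 genes. The nearest were Rian and Peg10, with the values above, and both were called in DESeq2 (adjusted p = 0.000489 and 0.000608) and with a pseudocount of 10 (adjusted p = 0.0449 for each), but not in edgeR. They were also called with the replicate block (adjusted p = 4.07e-05 and 1.82e-05), and without replicate 1 of 3C (adjusted p = 0.0347 for Rian and 0.0466 for Peg10) or replicate 2 of 3C+UNC (0.0141 and 0.0453). The block also gave a call for Zdbf2 (-0.48, adjusted p = 0.027, limma), for 3 members in all. Over all 16138 genes it called 413 interactions, where the main fit called 10. Over the 4 groups, 15 of 18 same-numbered pairs of libraries had a correlation of deviations above 0.1 (range 0.0595 to 0.223), as did 0 of 36 pairs with different numbers. In the main limma fit, which leaves the replicate number out, no difference between the media passed the threshold for a member. The count of 0 therefore depends on the fit. Of the marker genes Pou5f1 had a called interaction (-0.47 ± 0.08, adjusted p = 0.023).

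**Figure D3:**
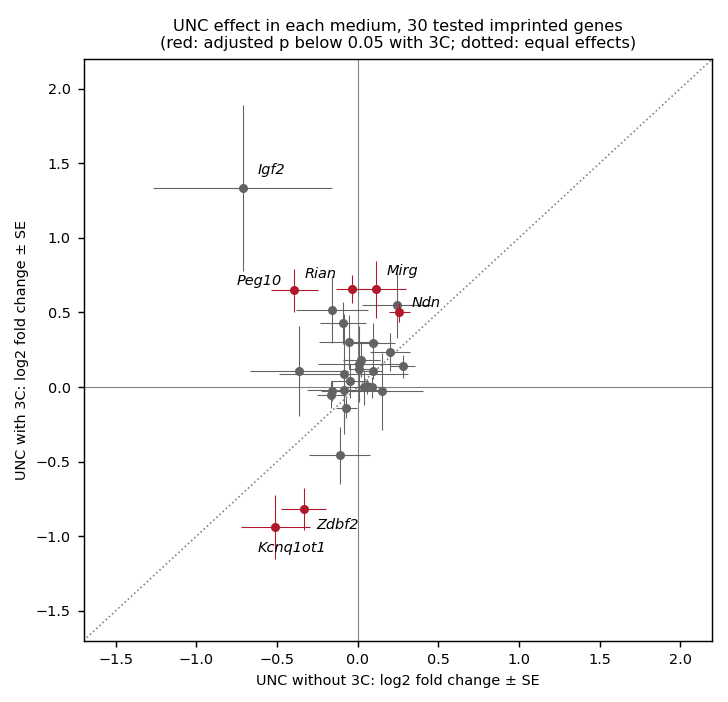
Log2 fold change ± SE of each of the 30 tested imprinted genes with UNC0638 in 3C (vertical axis, 3C+UNC against 3C) and without 3C (horizontal axis, UNC against DOX). The 6 genes called in 3C are red; Rian (0.66 against -0.04) and Peg10 (0.65 against -0.39) lie furthest from the dotted line of equal effects among them, and Igf2 has wide errors in both directions.

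The calls were also counted by parental copy, and groups this small were not compared by a test. In 3C against DOX 4 of 7 tested maternal genes were lower and 2 higher, and 9 of 18 paternal genes were lower and 3 higher, beside 24.7% of all genes in each direction. In 3C+UNC against UNC the counts were 2 lower and 2 higher of 7 maternal genes, and 8 lower and 2 higher of 18 paternal genes, beside 23.5% of all genes lower and 23.9% higher. With UNC0638 in 3C, 2 maternal genes were higher (Rian and Mirg) and of the paternal genes 2 were higher (Peg10 and Ndn) and 2 lower (Kcnq1ot1 and Zdbf2), beside 7.71% of all genes higher and 3.94% lower. These libraries do not separate the copies, so whether a change came from the active copy, the silent copy or both was not measured.

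Replicate numbers were shared by levels of several members. Of the 30 members, 17 had their highest DOX value in replicate 1 (56.7%, beside 32.5% of all genes tested), as did 14 in UNC (46.7%, beside 32.4%) and 15 in 3C (50%, beside 36.1%); in 3C+UNC it was 11 (36.7%, beside 30.2%). H19, Mest, Peg3 and Mirg show it in the plot of values by library or in the values above, with replicate 1 highest in UNC for each of the 4.

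A list of 48 further imprinted genes also had calls in both directions with 3C, and it was not tested against the 37 members. Of its 35 tested genes, 12 were lower and 9 higher in 3C+UNC against UNC (34.3% and 25.7%, beside 23.5% and 23.9% of all genes), and 9 were lower and 7 higher (25.7% and 20%, beside 24.7% of all genes each way) in 3C against DOX. The largest in the first were the carboxypeptidase gene Cpa4 (-3.27 ± 0.58), the proteoglycan gene Dcn (-1.51 ± 0.18), the protease inhibitor gene Tfpi2 (1.40 ± 0.52) and Adam23 (-1.39 ± 0.06). In the second they were Cpa4 (-2.08 ± 0.58), Dcn (-1.88 ± 0.18), Nap1l5 (-1.65 ± 0.32) and Adam23 (-1.54 ± 0.06). Dcn is on the list of fibroblast markers too. UNC0638 in 3C gave 7 higher and 2 lower of 35 (20% and 5.71%, beside 7.71% and 3.94% of all genes), led by Tfpi2 (2.05 ± 0.52), Dcn (0.68 ± 0.18), Ampd3 (0.67 ± 0.17) and Pon3 (0.66 ± 0.18), and without 3C it gave 0 calls in limma, as did the interaction.

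Of 26 genes that protect imprints or handle DNA methylation, 22 were tested, and Zfp57 had the largest change with 3C in both media. Zfp57 measured 206, 181 and 144 normalised counts in 3C+UNC libraries, 161, 182 and 173 in 3C libraries, 480.0, 414 and 404 in UNC libraries, and 411, 418 and 476 in DOX libraries. Libraries with 3C were well below those without it, and UNC0638 groups overlapped. It fell with 3C by 1.30 ± 0.12 and 1.33 ± 0.12 on the log2 scale, with UNC0638 and without it (adjusted p = 5.28e-08 and 3.69e-08, limma). The copying factors Dnmt1 and Uhrf1 fell by less, by 0.29 ± 0.05 and 0.41 ± 0.05 in 3C+UNC against UNC and by 0.14 ± 0.05 and 0.22 ± 0.05 in 3C against DOX, and both fell by 0.21 ± 0.05 with UNC0638 in 3C. Trim28 was between 10356 and 12048 normalised counts and was not called in any comparison. Ehmt2, the gene of a UNC0638 target, was not called, and Ehmt1 fell in 3C+UNC against UNC (-0.14 ± 0.05, adjusted p = 0.0353). Dppa3, which guards maternal marks in the zygote, had 0 normalised counts in all 12 libraries, and the cofactor gene Dnmt3l had 4.42 to 7.41 in the 6 libraries with 3C and 0 to 1.23 in the 6 without it, below the filter. Over the 22 tested, 11 were lower in 3C+UNC against UNC (50%, beside 23.5% of all genes) and 8 in 3C against DOX (36.4%, beside 24.7%), where Setdb1 was the 1 gene called higher. With UNC0638 in 3C 4 were lower (18.2%, beside 3.94%).

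In iPSC, none of 34 tested members was called between UNC iPSC and DMSO iPSC (0 in edgeR over 17987 genes, beside 1.27% of all genes higher and 0.0389% lower, 0 in DESeq2 and 0 in limma). At an unadjusted p below 0.05 in edgeR there were 6 of 34, beside 2207 of all 17987 genes. Rian, Mirg, Ndn, Snrpn and Grb10 had positive values and Plagl1 a negative one. The median log2 fold change of the 34 was 0.05, beside -0.00655 over all genes tested. Fibroblast markers differed there as well, with 12 of 15 higher and sums of 4170 to 4276 CPM in UNC iPSC against 2337 to 2925 CPM in DMSO iPSC.

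The maternal RNAs of the Dlk1/Meg3 locus were present in all 6 iPSC libraries. Meg3 measured 213, 201 and 282 CPM in UNC iPSC, against 211, 228 and 218 CPM in DMSO iPSC. Rian measured 258, 254 and 249 CPM in UNC iPSC, against 236, 241 and 224 CPM in DMSO iPSC. Mirg measured 16.0, 14.2 and 15.3 CPM in UNC iPSC, against 12.5, 13.6 and 11.6 CPM in DMSO iPSC. For Rian and Mirg the UNC iPSC libraries were all above the DMSO ones, by 0.12 ± 0.05 and 0.28 ± 0.10 on the log2 scale (adjusted p = 0.39 and 0.269, edgeR). Dlk1 was at 4.79, 4.06 and 3.94 CPM in UNC iPSC and 3.82, 3.94 and 3.08 CPM in DMSO iPSC (0.25 ± 0.16, adjusted p = 0.574).

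**Figure D4:**
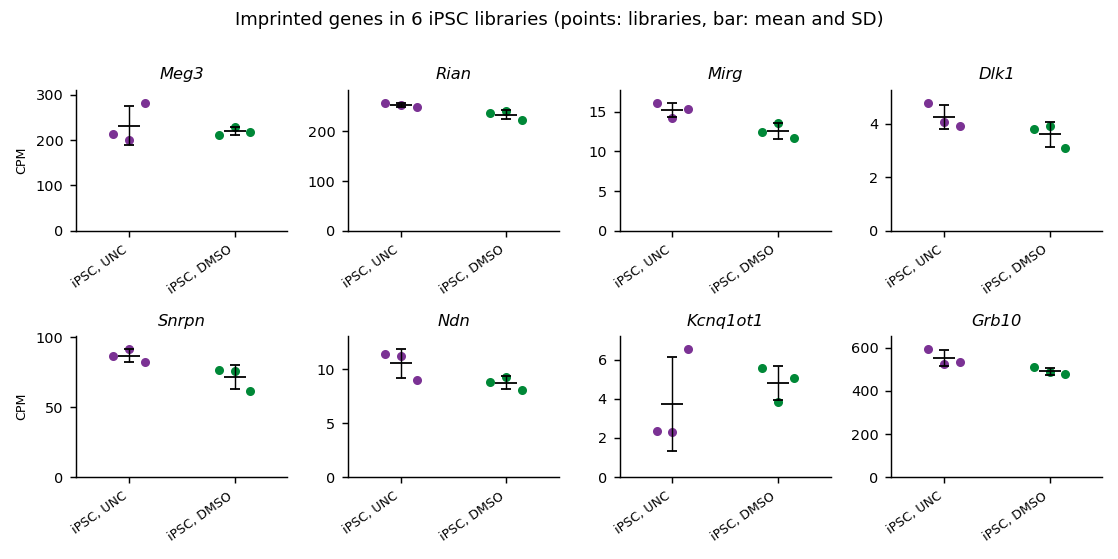
CPM of 8 imprinted genes in each of the 6 iPSC libraries (points, replicates 1 to 3 from left to right within a group) with the group mean and SD (bars), for UNC iPSC and DMSO iPSC. Meg3, Rian and Mirg were detected in every library, and Snrpn in UNC iPSC (82.1 to 91.5) is above DMSO iPSC (61.5 to 76.8) without passing the adjusted threshold.

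Snrpn measured 86.7, 91.5 and 82.1 CPM in UNC iPSC, against 76.8, 75.8 and 61.5 CPM in DMSO iPSC. This was the smallest unadjusted p of the members (log2 fold change 0.29 ± 0.09, adjusted p = 0.197, edgeR), and it passed with no filter on low counts (adjusted p = 0.00379). Ndn measured 11.4, 11.2 and 9.03 CPM in UNC iPSC and 8.82, 9.33 and 8.12 CPM in DMSO iPSC, with overlap. Kcnq1ot1 was uneven in UNC iPSC, with 2.36, 2.31 and 6.53 CPM, against 5.55, 3.86 and 5.04 CPM in DMSO iPSC. Its log2 fold change of -0.38 ± 0.34 was not called (adjusted p = 0.7), but became -1.02 (adjusted p = 0.0486) without replicate 3 of UNC iPSC.

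Of the further members, some separated the iPSC groups and others did not, with no call for any. Grb10 (526 to 594 CPM in UNC iPSC, 476 to 510 in DMSO iPSC) and Phlda2 were higher without overlap. Copg2 (106 to 108 CPM in UNC iPSC, 109 to 121 in DMSO iPSC) and Ube3a were lower without overlap. How often groups are apart over all genes was not counted. H19 measured 47.4, 50.0 and 57.2 CPM in UNC iPSC, against 49.0, 45.5 and 76.6 CPM in DMSO iPSC, and Igf2 stayed between 0.84 and 1.25 CPM. Cdkn1c measured 9.83, 8.56 and 7.92 CPM in UNC iPSC, against 8.24, 8.38 and 7.92 CPM in DMSO iPSC. Peg3 measured 84.1, 75.8 and 101 CPM in UNC iPSC, against 87.1, 87.8 and 120.4 CPM in DMSO iPSC. For H19, Igf2, Cdkn1c and Peg3 the ranges overlapped. Zdbf2, which fell with UNC0638 during reprogramming in 3C, measured 70.8, 63.7 and 87.6 CPM in UNC iPSC, against 83.4, 74.3 and 68.5 CPM in DMSO iPSC (-0.02 ± 0.11, adjusted p = 0.961). Genes near 0 in reprogramming cells were found in iPSC: Magel2 had 143 reads, Slc22a18 741, Usp29 307 and Zim1 254 over the 6 libraries, none of them called, and Kcnq1 and Airn had 48 and 46 reads and were not tested. Zfp57 was at 304, 297 and 329 CPM in UNC iPSC, against 303, 305 and 256 CPM in DMSO iPSC, with no call on the list of protecting genes. The list of further imprinted genes also gave 0 calls of 37.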

How the data were processed

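RNA libraries were made with a stranded total RNA kit with ribosomal RNA depletion, per the labels' protocols. The submitters' processing notes name TopHat2 2.1.0, SAMtools 1.8, HTSeq 0.5.4p3, DESeq and the build mm10; strand setting and filters are not given in the sources used here. The deposited reprogramming table holds a signal, the authors' gene counts divided by a size factor per library; whole reads were recovered for 100% of values, within 0.01 read. The deposited iPSC table holds raw counts, from which CPM were computed here. A further 2 columns of the reprogramming table matched no sample and were not used. Replicate numbers of DMSO iPSC differ between titles and descriptions, and titles were used.

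In the reprogramming table (12 libraries, 16138 genes with at least 10 normalised counts in 3 or more libraries), log2 of the value plus 1 was fitted over all 4 groups in limma 3.58.1 (R 4.3.3), which understates fold changes of low genes. The iPSC counts were fitted with edgeR 4.0.16 (quasi-likelihood test) over 17987 genes. P-values were adjusted by Benjamini-Hochberg over all genes tested, with a threshold of 0.05. DESeq2 1.42.0 and edgeR on recovered reads were alternatives, with other pseudocounts, filters, samples in the fit, each library left out, and replicate number as a block. The scripts were tested on simulated data. Intervals are exact at 95% and, like the limit of 3 counts for a value of 0, cover counting error only.

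Same-numbered libraries deviated together in UNC with 3C (correlations 0.110, 0.191 and 0.149), 3C without UNC0638 (0.106, 0.156 and 0.131) and 3C with UNC0638 (0.187, 0.205 and 0.155), which met the rule for pairing (every pair above 0.1), and so pair the libraries of the interaction within each of its 3C contrasts; the labels do not say what a number stands for. Calls, p-values and SE of the reprogramming libraries are from the main fit, which does not use this pairing, unless another setting is named. Gene symbols were present for 54042 of 54109 and 54723 of 54838 identifiers. Positions and sequences are from RefSeq on GRCm38.p6. The members and lists were chosen with earlier results of these data known; all 37 members are accounted for, and further genes of a list are named as the 4 largest called changes or for a role in imprinting.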

Additional observations from a re-analysis of the deposited data

How the results depend on the processing

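Under the alternatives, 101 of 114 counts of called members stayed within 1.5 times the reported count and 13 moved. The 101 include each count of 0 that stayed at 0 in UNC without 3C, the interaction and iPSC. No fold change of a called member changed sign (0 of the recomputed values). In UNC without 3C, where 0 members were called, DESeq2 called 2 and the replicate block 4 in limma and 4 in edgeR on recovered reads. Calls over all genes rose as well, from 98 to 168, 409 and 416 of 16138. In UNC with 3C, with 6 members, edgeR on recovered reads with the replicate block called 10. Over all genes it called 3120, where the main fit called 1880. For the interaction, with 0 members, 2 were called with a pseudocount of 10, 2 in DESeq2, 3 with the replicate block in limma and 3 in edgeR with the block. Over all genes these settings called 27, 160, 413 and 479, where the main fit called 10. In iPSC, with 0 members, 1 (Snrpn) was called with no filter and 1 (Snrpn, adjusted p = 0.0328, edgeR) with the block. Over all genes these settings called 823 and 407, where the main fit called 236. The combination of edgeR on recovered reads with the replicate block was chosen after seeing the data. The cause of these shifts was not tested. Leaving out 1 library at a time gave 0 to 2 member calls for the interaction, beside 0 to 70 calls over all genes. In iPSC it gave 0 to 1, beside 85 to 216, and in UNC with 3C 4 to 9, beside 1039 to 1917. In 3C without UNC0638 it gave 21 to 23, beside 7193 to 8123. In 3C with UNC0638 it gave 15 to 19, beside 6829 to 7659. In UNC without 3C it gave 0 to 0, beside 19 to 144. In UNC without 3C and iPSC not every same-numbered pair reached the correlation of 0.1 set for pairing, so the block there rests on a shared number. A pseudocount of 10 moved Igf2 in 3C against DOX to -1.47 and in 3C+UNC against UNC to -0.74. Low counts limit Igf2 and Ascl2 most, and 7 members had too few reads to be tested in the reprogramming libraries.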
